A study of Rattus norvegicus with 6 samples.

Results

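Fatty acid oxidation and lipid droplet genes were followed as 10 genes, Cpt1a, Cpt2, Acadvl, Acadl, Acadm, Hadha, Pdk4, Angptl4, Plin2 and Ucp2, in cultured rat muscle stem cells. They were found by their gene symbols in the platform annotation, which gives each of the 10 genes 1 probe set, meaning several short probes summarised into a single signal. They are 10 of 18166 named genes, and all 10 were among the 11540 genes whose mean log2 signal over the 6 arrays reached 6.74, the median of all values. The cells were isolated by plating from skeletal muscle of male rats, and their RNA was read on Affymetrix Rat Gene 2.0 ST arrays. The series has 6 libraries with 1 array each. The fatty acid library received sodium palmitate, for which the labels give no dose. The cholesterol library received 100 mg/dl cholesterol with cyclodextrin as carrier. The remaining libraries are titled OZ serum, LZ serum, high glucose control and low glucose control, titles that are used as given. The labels state no strain, age, number of animals, treatment time or glucose concentration, and they do not say whether a control held the carrier or which control belongs to which treatment. Each lipid and serum library was therefore set against both controls. Since each group is a single array, there is no spread between replicates, nothing was tested, and the number of arrays limits the precision of every value. As the 10 genes were chosen with earlier results of these data known, their counts and ranks beside all genes only describe them.

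As background, a long-chain fatty acid is burned in mitochondria after it has been activated to an acyl-CoA and carried across the inner membrane as an acyl-carnitine. Carnitine palmitoyltransferase 1 on the outer membrane makes the acyl-carnitine and sets the rate, and carnitine palmitoyltransferase 2 on the inner membrane turns it back into acyl-CoA. Acyl-CoA dehydrogenases of different chain-length preference then start each round of beta-oxidation, and the trifunctional protein completes the round for long chains. Fatty acids also bind peroxisome proliferator-activated receptors (PPARs), nuclear receptors that switch on genes of fat use, Pdk4, Angptl4, Plin2 and Cpt1a among them. Fat that is not burned is stored as triglyceride in droplets coated by perilipins, and skeletal muscle is a main site of fatty acid use in the body.

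The cells had a mesenchymal signature with weak myogenic markers. Of 8 annotated mesenchymal progenitor markers all 8 passed the signal filter, at log2 9.15 to 13.79 across libraries, while of 8 muscle progenitor markers 4 passed. The defining myogenic genes Myf5 and Myod1 stayed below the filter, at means of 6.05 and 6.36, and Pax7 averaged 7.05, while Ncam1, at a mean of 12.13, was the strongest of that list. Of 7 adipocyte markers 4 passed, Plin1, Cidec, Lipe and Pparg at means of 6.79 to 7.29, while Adipoq (5.95), Fabp4 (3.94) and Lep (5.98) did not. Of 6 macrophage and leukocyte markers 2 passed, Cd14 (9.34) and Cd68 (7.16), while Ptprc (5.52), Aif1, Csf1r and Itgam did not. None of 3 annotated endothelial markers passed. In a bulk culture fewer cells of a type and less RNA per cell cannot be told apart.

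The promoters of the genes on which the results turn are shown first. RefSeq windows on build GRCr8, each with 250 bases before and 50 after the annotated start, were available for 9 of the 10 genes. They were searched on both strands for the nuclear receptor hexamer AGGTCA, for the PPAR-type direct repeat called DR1, made of 2 copies of that hexamer on the same strand with 1 free base between them, for the GC box GGGCGG and for the TATA box TATAAA. Acadvl (chr10:55236656-55236955, minus strand) is shown because it held the nearest match to the repeat. Cpt1a (chr1:209995910-209996209, plus strand), Pdk4 (chr4:34568280-34568579, minus strand) and Ucp2 (chr1:164251123-164251422, plus strand) are shown because their signals varied most over the libraries. Each is written 5′ to 3′ on the strand of its gene, with matches to the hexamer, the repeat or the GC box in capitals.
Acadvl: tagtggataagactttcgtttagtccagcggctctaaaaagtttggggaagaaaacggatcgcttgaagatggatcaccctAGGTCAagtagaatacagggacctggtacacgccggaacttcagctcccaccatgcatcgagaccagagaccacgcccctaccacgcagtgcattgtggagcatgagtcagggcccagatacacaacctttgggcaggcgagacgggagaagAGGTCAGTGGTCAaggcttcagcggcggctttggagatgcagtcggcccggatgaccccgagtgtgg
Cpt1a: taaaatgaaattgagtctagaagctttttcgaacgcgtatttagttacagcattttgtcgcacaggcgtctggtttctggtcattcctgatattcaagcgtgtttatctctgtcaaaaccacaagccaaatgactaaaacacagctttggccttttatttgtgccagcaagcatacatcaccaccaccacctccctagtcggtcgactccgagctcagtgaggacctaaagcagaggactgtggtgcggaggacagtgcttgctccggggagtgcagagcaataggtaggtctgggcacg
Pdk4: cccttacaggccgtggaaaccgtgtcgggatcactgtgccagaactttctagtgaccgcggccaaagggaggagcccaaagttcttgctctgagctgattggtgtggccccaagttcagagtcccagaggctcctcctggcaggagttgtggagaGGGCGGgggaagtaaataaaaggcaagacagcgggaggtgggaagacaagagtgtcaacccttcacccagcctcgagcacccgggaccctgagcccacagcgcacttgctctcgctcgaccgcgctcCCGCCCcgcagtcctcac
Ucp2: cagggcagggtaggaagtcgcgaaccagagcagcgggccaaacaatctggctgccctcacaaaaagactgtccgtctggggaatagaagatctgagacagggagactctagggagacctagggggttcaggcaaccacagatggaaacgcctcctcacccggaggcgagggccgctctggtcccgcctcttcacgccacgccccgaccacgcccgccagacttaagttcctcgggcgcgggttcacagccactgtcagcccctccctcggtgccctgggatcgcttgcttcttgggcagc
In the Acadvl window the stretch AGGTCAGTGGTCA, from base -17 to base -5 relative to the start, matched 11 of the 12 fixed letters of the repeat. Matches with at most 1 mismatch occur in 0.439% of 33469 such windows in the table. The same window held a separate hexamer at bases -169 to -164. The hexamer occurs in 16.2% of all windows, and among the 10 windows of the 9 genes (Plin2 has 2) the Acadvl window was the only one to hold it. The capitals in Pdk4 are 2 GC boxes, a motif found in 33.1% of all windows and in 6 of these 10. TATAAA was in 14.2% of all windows and in 1 of these 10, CCAAT in 37.5% and in 3, and the E-box CACGTG in 6.42% and in 1. No capitals appear in the shown Cpt1a and Ucp2 windows. These letters describe the windows and say nothing of factor binding.

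Cpt1a and Cpt2 act in sequence in fatty acid entry, and their patterns differed. Cpt1a (probe set 17622676), the liver-type carnitine palmitoyltransferase 1, had a log2 signal of 9.90 in the fatty acid, 9.65 in the cholesterol, 9.64 in the OZ serum and 9.39 in the LZ serum library, against 8.95 and 8.88 in the high and low glucose controls. All 4 treated libraries lay above both controls, and the controls differed by 0.07. The fatty acid library was 1.93-fold above the nearer control, cholesterol 1.62-fold and LZ serum 0.44 on the log2 scale. Cpt2 (probe set 17809157), the inner membrane enzyme, was 8.93, 8.93, 8.99 and 9.05 in the fatty acid, cholesterol, OZ and LZ serum libraries, against 9.12 and 9.06 in the high and low glucose controls. All 4 treated libraries lay below both controls, but the whole span over 6 libraries was 0.20, and 91.0% of genes had a larger one.

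**Figure D1:**
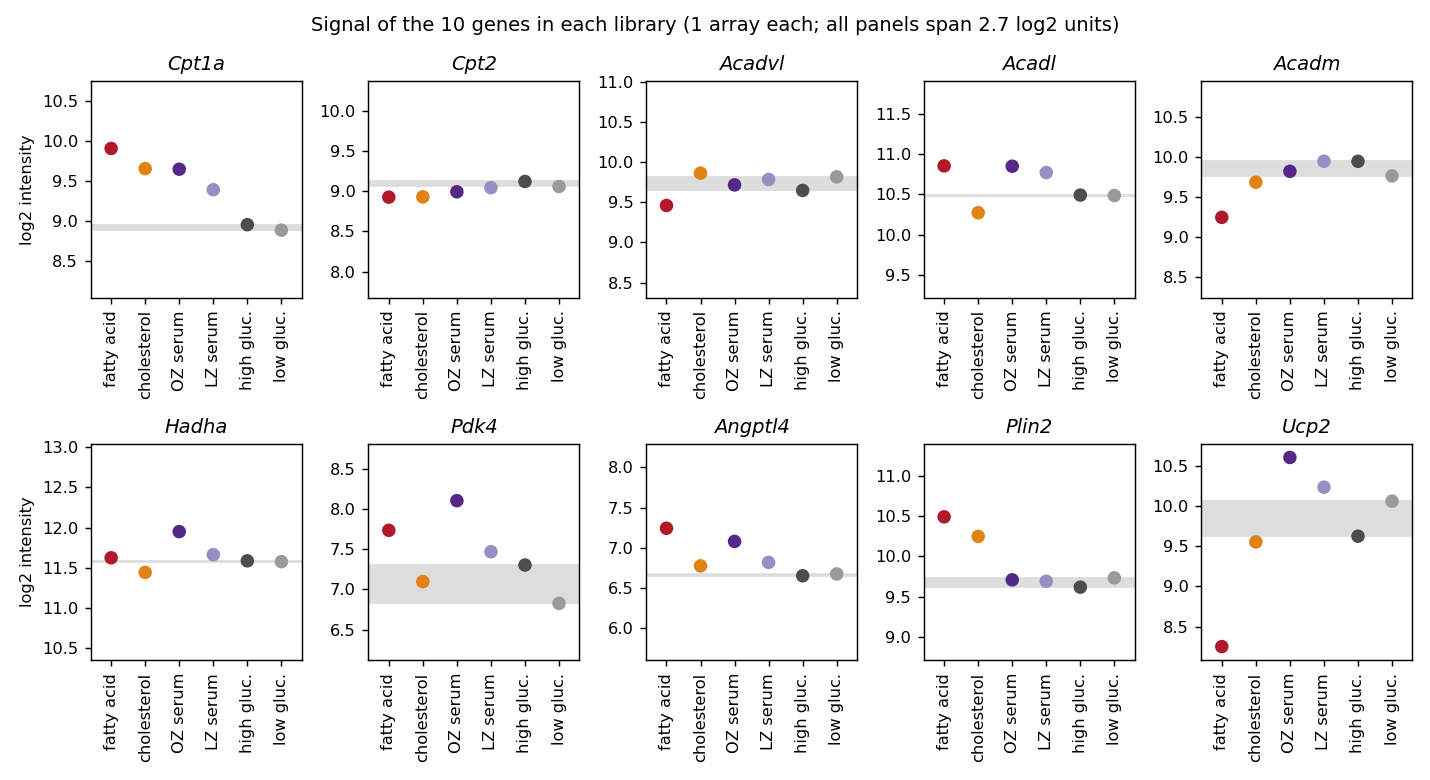
Log2 intensity (y axis) of each of the 10 genes in the 6 libraries (x axis), 1 point per array; the grey band runs between the high and low glucose controls (high gluc., low gluc.), and every panel has the same height in log2 units. Cpt1a has all 4 treated libraries above the band, Plin2 the fatty acid and cholesterol libraries, and Ucp2 has the widest span, 2.36, with the fatty acid library at its low end.

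The 3 acyl-CoA dehydrogenases, which take the first step of each oxidation round, did not move together. Acadl (probe set 17865147), the long-chain enzyme, was 10.86 in the fatty acid, 10.27 in the cholesterol, 10.85 in the OZ serum and 10.77 in the LZ serum library, against 10.49 in each control. The fatty acid and serum libraries were above the controls and the cholesterol library was below them, with only 0.01 between the controls. Acadm (probe set 17752115), the medium-chain enzyme, was 9.25 in the fatty acid, 9.68 in the cholesterol, 9.82 in the OZ serum and 9.95 in the LZ serum library, against 9.94 in the high and 9.76 in the low glucose control. It was lowest with fatty acid, by 0.52 from the nearer control, and the serum libraries lay between the controls or level with the high glucose control. Acadvl (probe set 17658004), the very long-chain enzyme, was 9.46 in the fatty acid, 9.86 in the cholesterol, 9.72 in the OZ serum and 9.79 in the LZ serum library, against 9.65 and 9.82 in the high and low glucose controls. Its fatty acid value was 0.19 below the nearer control, about as far as the 0.17 between the controls.

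Hadha (probe set 17814418), the alpha subunit of the trifunctional protein, was 11.62 in the fatty acid, 11.44 in the cholesterol, 11.95 in the OZ serum and 11.66 in the LZ serum library, against 11.58 and 11.57 in the high and low glucose controls. The OZ serum library stood above the others by 0.29 or more, while the fatty acid library was 0.04 above the nearer control, an excess that centring each array on its median removed. Hadhb, the beta subunit, named after its values were seen, is the neighbouring protein-coding gene and was also highest with OZ serum, at 11.19, against 10.98 with LZ serum. Its high and low glucose controls were at 10.91 and 11.08, so that its LZ serum value lay between them, unlike that of Hadha.

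Pdk4, Angptl4 and Plin2 are classical PPAR-responsive genes, and all 3 were higher in the fatty acid library than in both controls. Pdk4 (probe set 17789572), a kinase that shuts pyruvate dehydrogenase and so spares glucose, was 7.74 in the fatty acid, 7.10 in the cholesterol, 8.11 in the OZ serum and 7.47 in the LZ serum library, against 7.30 in the high and 6.83 in the low glucose control. OZ serum was the highest library and cholesterol lay between the controls, which were 0.48 apart. Only 5.24% of genes differed more between the controls, so the fatty acid excess was 0.43 over the high and 0.91 over the low glucose control.

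Angptl4 (probe set 17834433), a secreted inhibitor of lipoprotein lipase, was 7.24 in the fatty acid, 6.77 in the cholesterol, 7.08 in the OZ serum and 6.82 in the LZ serum library, against 6.65 and 6.67 in the high and low glucose controls. All treated libraries exceeded the controls, with fatty acid 0.57 and OZ serum 0.41 above the nearer control. The control signals lay just under the median of all values, and adding 32 to every intensity before taking logs brought the fatty acid difference to 0.45.

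Plin2 (probe set 17808473), perilipin 2, which coats lipid droplets in most cell types, was 10.49 in the fatty acid, 10.25 in the cholesterol, 9.71 in the OZ serum and 9.69 in the LZ serum library, against 9.62 and 9.73 in the high and low glucose controls. Both purified lipids were above both controls, fatty acid 1.69-fold and cholesterol 1.43-fold, while both serum libraries lay between the controls. Cpt1a differed in that it was above the controls in the serum libraries as well.

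Ucp2 (probe set 17618749), a carrier of the mitochondrial inner membrane from the uncoupling protein family, was the most variable of the 10 genes. It was 8.25 in the fatty acid, 9.55 in the cholesterol, 10.61 in the OZ serum and 10.24 in the LZ serum library, against 9.63 in the high and 10.06 in the low glucose control. The fatty acid library stood lowest by a wide margin and the serum libraries highest, and over the 6 libraries the span was 5.13-fold, exceeded by 62 of 11540 genes. The low glucose control was 0.44 above the high glucose control, so the distance of the OZ serum library was 0.98 from the one and 0.55 from the other. Ucp3, the muscle-type family member, is the protein-coding gene before it in the annotation. Ucp3 was 7.18 in the fatty acid, 6.87 in the cholesterol, 7.16 in the OZ serum and 6.92 in the LZ serum library, against 6.84 and 6.81 in the high and low glucose controls, so that the neighbours differed in direction with fatty acid and were both above the controls with serum.

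**Figure D2:**
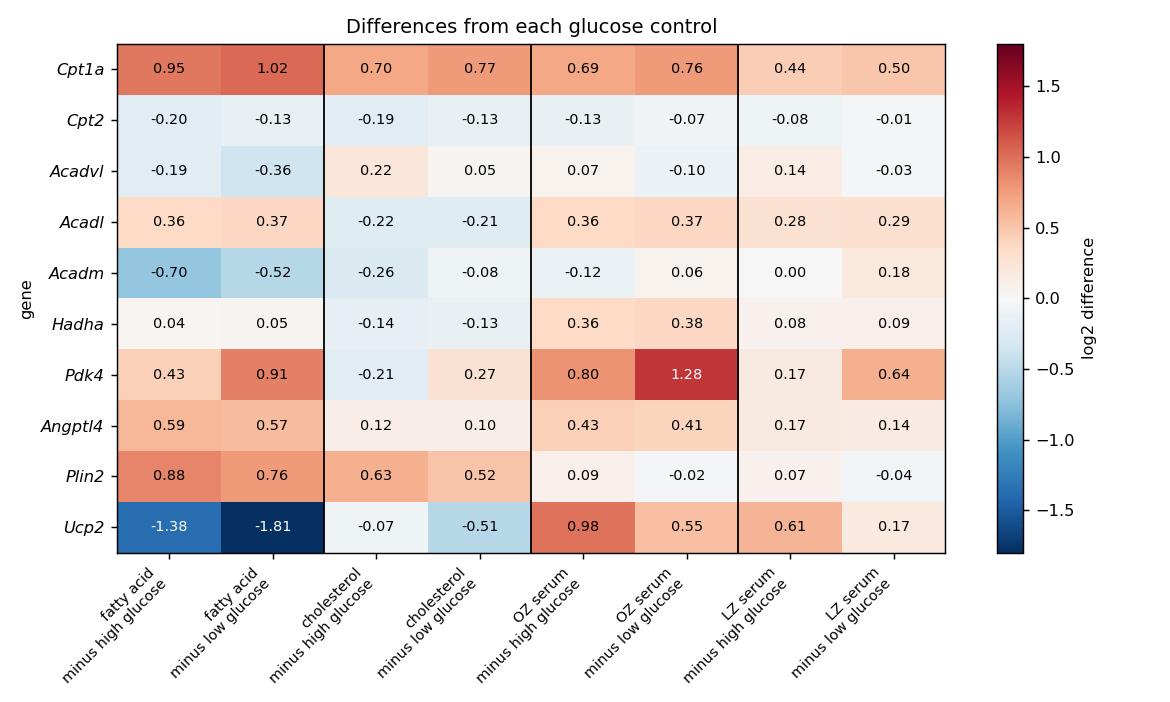
Log2 differences (colour and printed value) of the fatty acid, cholesterol, OZ serum and LZ serum libraries from the high and the low glucose control, one row per gene. Cpt1a is positive in all 8 columns, Ucp2 has the most negative value, -1.81 for fatty acid minus low glucose control, and Cpt2 is negative throughout by at most 0.20.

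With fatty acid, Cpt1a, Plin2 and Angptl4 were the highest of the 10 genes relative to both controls and Ucp2 was the lowest. In every comparison a gene's value against several libraries is its smallest log2 difference when all differences have the same sign and 0 otherwise, and 2-fold was the size at which it was counted. At any size 6 of the 10 genes were higher, Cpt1a, Plin2, Angptl4, Pdk4, Acadl and Hadha, against a background of 40.4% of all genes, and 4 were lower, against 39.7%. At 2-fold none was higher, where the background was 0.641%, and Ucp2 alone was lower, at 2.60-fold, where it was 2.01%. Cpt1a, at 0.95, missed 2-fold against the high glucose control but passed it against the low glucose control, at 1.02. Against that control alone 1 of 10 genes was 2-fold higher, where 0.953% of all genes were, and 1 was 2-fold lower, where 2.75% were. Only 85 of 11540 genes had a higher value than Cpt1a, 160 than Plin2 and 353 than Angptl4, and 95 had a lower value than Ucp2. The median difference of the 10 genes was 0.20 from the high and 0.21 from the low glucose control, beside 0.01 and -0.00 for all genes. In the same library the summed intensity of 8 mesenchymal progenitor markers was 42999, against 56223 in the high and 59184 in the low glucose control, that of 8 muscle progenitor markers was 3443 against 5705 and 6338, and that of 7 adipocyte markers was 767 against 704 and 693. The muscle sum followed Ncam1, at 11.37 with fatty acid against 12.26 and 12.43 in the high and low glucose controls, whereas Pax7 was at 7.26 against 6.90 and 7.04. In the mesenchymal sum Cd44 went the other way, at 10.94 against 10.35 and 10.49 in the high and low glucose controls. Vim lay between the controls, and the remaining markers of that list were below both. In the adipocyte sum Pparg was below both controls, at -0.26, and Fabp4 lay between them, while the remaining markers were above both. The part of these shifts in the results was not tested.

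With cholesterol, Cpt1a and Plin2 were again the highest of the 10 genes, and by the smallest difference the others were nearer to the controls. At any size 4 genes were higher than both controls, against a background of 36.3%, and 5 were lower, against 33.6%. None passed 2-fold in either direction, where the backgrounds were 0.381% and 0.806%. Cpt1a was at 0.70, with 106 genes higher, and Plin2 at 0.52, with 209 genes higher. Acadl was at -0.21 and Hadha at -0.13, while Ucp2 was at -0.07, its distance from the high glucose control, the lower of the controls for this gene. From the low glucose control alone Ucp2 was at -0.51. The median difference of the 10 genes was -0.11 from the high and -0.02 from the low glucose control. Macrophage and leukocyte markers, 6 in number, summed to 1656 in the cholesterol library against 1083 and 816 in the high and low glucose controls. Cd14 was at 10.13 and Cd68 at 8.37 with cholesterol, Ptprc was below the filter at 5.42, and their part was not tested.

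Set directly against cholesterol, the fatty acid library was higher in Pdk4, Acadl and Angptl4 and lower in Ucp2, Acadm and Acadvl. At any size 6 of the 10 genes were higher, against a background of 48%, and 4 were lower, against 51.9%. Pdk4 was 0.64, Acadl 0.58 and Angptl4 0.47 higher with fatty acid, while Cpt1a and Plin2 were 0.25 and 0.24 higher. Ucp2 was lower by the most of the 10 genes, at -1.30 or 2.47-fold, and only 77 of all genes were lower still. It was the single one of 10 genes past 2-fold on the lower side, against a background of 1.92%, and 0 of 10 were past it on the higher side, against 0.901%. Acadm and Acadvl were at -0.44 and -0.40. Cpt2 differed by less than 0.01, with a direction that changed under each other scaling.

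**Figure D3:**
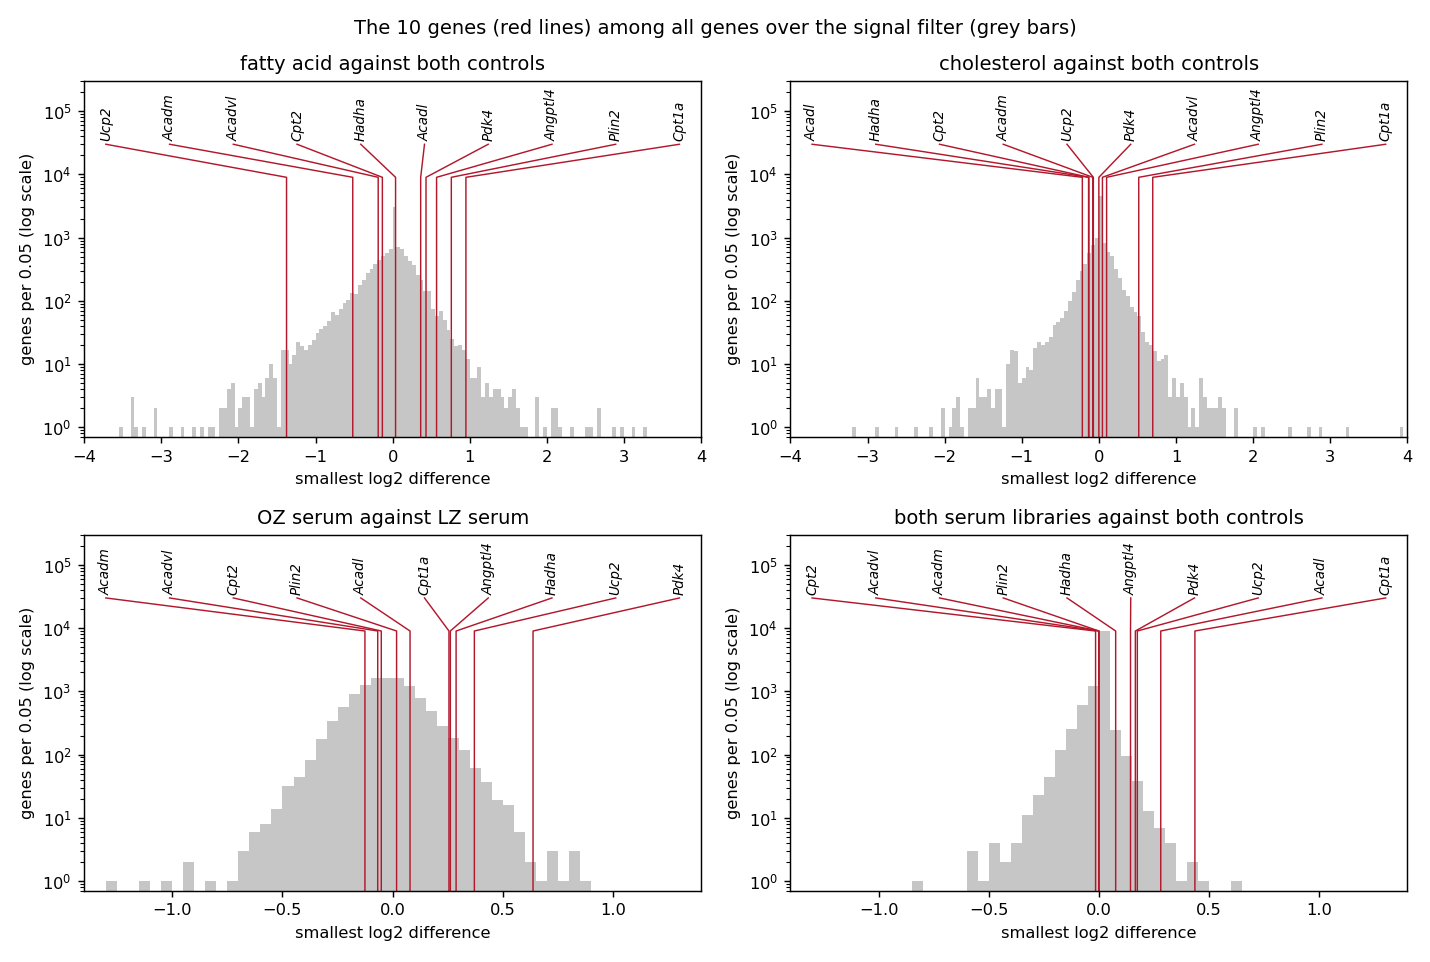
Histograms of the smallest log2 difference (x axis) of all 11540 genes over the signal filter, as genes per 0.05 log2 unit on a log axis (y), with red lines at the 10 genes; genes without an agreed direction are in the bar that starts at 0. With OZ serum against LZ serum Pdk4 has 9 genes above it, and with both serum libraries against both controls Cpt1a has 3.

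The serum libraries differed little from each other and from the controls, yet several of the 10 genes were near the top of those differences. Against LZ serum, the OZ serum library was 1.56-fold higher in Pdk4, a log2 difference of 0.64 that only 9 of 11540 genes exceeded. Ucp2 was 0.37, Hadha 0.29, Angptl4 0.26 and Cpt1a 0.26 higher, with 115, 290, 395 and 420 genes above them. At any size 7 of 10 genes were higher in OZ serum, against a background of 41.9%, and 3 were lower, against 58.1%. Plin2, at 0.02, changed side when arrays were centred on their medians. None reached 2-fold, which no gene of the 11540 did upward and 0.026% did downward. The median of the 10 genes was 0.17, beside -0.03 for all genes.

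Both serum libraries were above both controls in 6 of the 10 genes, Cpt1a, Acadl, Ucp2, Pdk4, Angptl4 and Hadha, where 8.83% of all genes were, and below in 1, Cpt2, where 19.7% were. Cpt1a was at 0.44 by its smallest difference, and 3 genes had a higher value. Acadl was at 0.28 with 11 genes higher, Ucp2 at 0.17 with 39, Pdk4 at 0.17 with 46 and Angptl4 at 0.14 with 77. The values are small, none of the 10 genes nor any other gene passed 2-fold, and Hadha, at 0.08, had 249 genes above it. In the same 6 genes the signal with OZ serum was above that with LZ serum, which was above both controls. This order, counted after the values were seen, held for 5.4% of all genes, and its mirror, found in Cpt2 alone of the 10, for 13.6%. The 6 genes kept the order under quantile normalization, median centring and cyclic loess. As the same controls serve all comparisons of lipids and sera, no overlap between those comparisons is given.

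Between the controls the largest differences of the 10 genes were in Pdk4, 0.48 higher in high glucose, and Ucp2, 0.44 lower in high glucose. The other 8 genes differed by 0.18 or less. At any size 6 genes were higher and 4 lower, against backgrounds of 48.9% and 51.1%, and none reached 2-fold, where the backgrounds were 0.251% and 0.104%.

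At a smaller size, 1.5-fold, more of the 10 genes were counted. With fatty acid, Cpt1a and Plin2 were higher than both controls by that much, where 2.92% of all genes were, and Ucp2 was lower, where 6.13% were. With cholesterol only Cpt1a of the 10 genes was higher, against 1.36%, and none was lower, against 2.04%. Pdk4 was higher with fatty acid than with cholesterol, against 4.31%, and Ucp2 lower, against 7.43%. Pdk4 was the one gene of the 10 higher with OZ serum than with LZ serum, against 0.113%, and none was lower, against 0.147%. None of the 10 reached 1.5-fold in both sera against both controls, where 0.00867% of all genes did in each direction, or between the controls, where 1.59% were higher and 1.11% lower in high glucose.

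The wider pathway was read from 10 lists with 113 genes, of which 88 passed the filter, 78 of them not among the 10. With both sera 8 of these 78 were higher than both controls and 19 lower, where 8.83% and 19.7% of all genes were. With OZ serum against LZ serum 25 of the 78 were higher and 53 lower, where 41.9% and 58.1% of all genes were. The serum excess of the 10 genes was thus not seen in the other list genes as a set. In the carnitine shuttle 3 of 8 genes were higher and 5 lower with fatty acid than in both controls, where 40.4% and 39.7% of all genes were. Cpt1c, the neuronal isoform, was at -0.76 and Cpt1b, the muscle isoform, at 0.30. Relative to the controls Cpt1a was thus highest and Cpt1c lowest of the 3 Cpt1 genes. By signal Cpt1c was above Cpt1a in both controls, at 9.84 in the high and 9.77 in the low glucose control. Signals of different probe sets need not reflect relative amounts of RNA, so this order does not rank the genes by expression. In mitochondrial beta-oxidation 3 of 18 genes were higher and 12 lower with fatty acid, where the backgrounds were 40.4% and 39.7%. Acot2, a mitochondrial acyl-CoA thioesterase, was the highest at 0.70 and Hadh, the short-chain hydroxyacyl-CoA dehydrogenase, the lowest at -0.93. Acot2 was the only list gene over 2-fold higher with fatty acid than with cholesterol, at 1.31. It adjoins a close paralog, Acot1, whose own signal was below the filter, and probes may not separate them. In peroxisomal oxidation 2 of 9 genes were higher and 6 lower with fatty acid, beside the same 40.4% and 39.7% of all genes. Scp2, a sterol carrier and thiolase, was the lowest at -0.92. With cholesterol 3 of 18 mitochondrial genes were higher and 8 lower, where 36.3% and 33.6% of all genes were, from Eci1, an enoyl-CoA isomerase, at 0.37 to Acot2 at -0.50.

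In the droplet and lipolysis list 12 of 19 genes were higher and 4 lower with fatty acid than in both controls, where 40.4% and 39.7% of all genes were. With cholesterol 11 of the 19 were higher and 2 lower, where 36.3% and 33.6% of all genes were. The remaining genes had no agreed direction. Cidea, which promotes droplet growth, was the highest in both, just over 2-fold with fatty acid and at 0.85 with cholesterol, with signals of 9.18 and 9.03 against 8.17 and 8.14 in the high and low glucose controls. Its fatty acid value was just under 2-fold after median centring (0.97), after cyclic loess and with an offset of 32. Mgll, the monoglyceride lipase, was lowest with fatty acid at -0.35 and Dgat2, a triglyceride synthesis enzyme, lowest with cholesterol at -0.17. With the sera 0 of 19 droplet genes were higher than both controls and 1 was lower, where 8.83% and 19.7% of all genes were.

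Uptake and receptor genes were mixed. Slc27a4, a fatty acid transport protein, was at 0.71 with fatty acid and 0.72 with cholesterol, while Acsl3, an acyl-CoA synthetase, was lowest in its list with both, at -0.67 and -0.19. Fabp3, the heart-type fatty acid binding protein, was 1.08 lower with fatty acid than with cholesterol, and Cpt1c was 1.01 lower. The Cpt1c value came under 2-fold after quantile normalization, after cyclic loess and with the offset of 32. Of 8 PPAR receptors and coactivators 2 were higher and 4 lower with fatty acid, where 40.4% and 39.7% of all genes were, led by the coactivator Ppargc1b at 0.18 and Pparg, the adipogenic receptor, at -0.26. With cholesterol Pparg was at -0.50 and Rxra, a shared partner of these receptors, at 0.26. Among the kinases and phosphatases of pyruvate dehydrogenase Pdk4 was highest with fatty acid and Pdk1 lowest at -0.41. With cholesterol Pdk2 was highest at 0.15 and Pdk3 lowest at -0.22. Among lipase regulators Angptl4 was highest with both lipids, Angptl2, a secreted relative, lowest with fatty acid at -0.62, and Lpl, lipoprotein lipase itself, lowest with cholesterol at -0.18. Of 19 PPAR-responsive genes, 9 were higher and 9 lower with fatty acid, where the backgrounds were again 40.4% and 39.7%. With the sera 9 were higher and 4 lower, where they were 8.83% and 19.7%. Of those 19 genes 7 are among the 10. The genes higher with the sera include Cpt1a, Pdk4, Angptl4, Hadha and Ucp2, so that count partly repeats the result of the 10. The others higher were Acot2 at 0.09, Ucp3 at 0.08, Acsl1 at 0.06 and Acaa2 at 0.03, all small differences. The 4 lower genes, Fabp3 at -0.22, Cat at -0.09, Slc25a20 at -0.02 and Lpin1 at -0.02, are not among the 10.

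**Figure D4:**
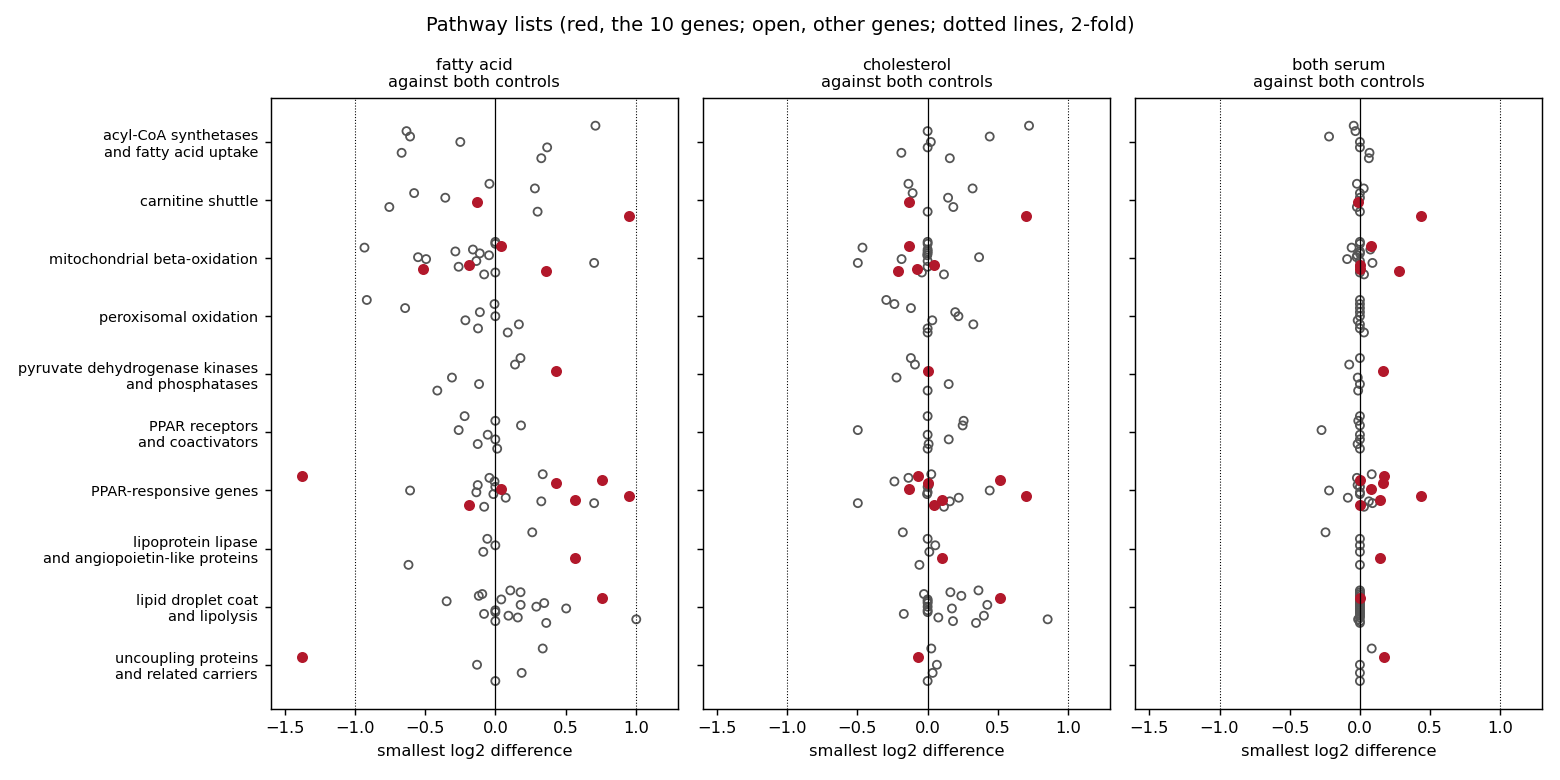
Smallest log2 difference (x axis) of each gene over the signal filter in the 10 pathway lists (y axis) for fatty acid, cholesterol and both sera against both controls; red points are the 10 genes, open points other genes, dotted lines 2-fold, and a gene in several lists is drawn in each. With fatty acid 12 of 18 mitochondrial beta-oxidation genes lie left of 0, and 12 of 19 droplet genes with fatty acid and 11 with cholesterol lie right of 0.

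The patterns of the 10 genes over the 6 libraries were compared by the root mean square difference of log2 values centred on each gene's mean. The closest pairs were Acadvl with Cpt2 and Acadl with Hadha, at 0.14 each, the first of which reflects small spans. Acadl with Angptl4 was at 0.15 and Cpt1a with Angptl4 at 0.22, while Plin2 with Ucp2 was the most distant pair at 1.04. Among 11421 other genes, the patterns most like that of Cpt1a were those of Ighl13 (0.14), Serpinf2, alpha-2-antiplasmin (0.17), and Glrx, glutaredoxin (0.20), where the median distance was 0.40. Nearest to Pdk4 were Rps10-ps21 (0.19), Tmem161b (0.20) and Or1e33 (0.21), with a median of 0.46. Nearest to Ucp2 were Or10j7 and Or4f59 (0.21 each) and Plcb4, a phospholipase C (0.26), with a median of 0.77. Or4f59 passed the filter on its mean, but its signals of 5.71 with fatty acid and 6.70 in the high glucose control lay under the filter value. Ighl13 and Serpinf2 also passed on their means only. Their signals in the high and low glucose controls lay under that value, at 6.62 and 6.58 for Ighl13 and at 6.40 and 6.60 for Serpinf2. None of the nearest genes named here is in the pathway lists.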

How the data were processed

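Total RNA from 6 samples was hybridised to 6 arrays. The deposited values are linear probe-set intensities, and how the authors summarised and normalized them is not given in the sources used here. Their medians per array ran from 104.6 to 109.2, so they were taken as already scaled. Of 36685 probe sets the platform annotation gives 18511 1 gene, 575 several and 17599 none, and probe sets with several genes were left out. Intensities were converted to log2 without an offset, with Python 3.11.15, pandas 2.3.3 and, for other scalings, limma 3.58.1. A gene had to reach a mean of 6.74. Calls were made at 2-fold, without tests, and the counting was checked on simulated data. The genes named are the 10, list genes past 2-fold, the highest and lowest gene of each list with fatty acid and with cholesterol, and the 3 patterns nearest to each of the 10 with a log2 span of 1 or more. The 10 genes and the lists were chosen with earlier results of these data known, so their counts beside all genes are descriptive only. Promoters are from RefSeq, GRCr8.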

Additional observations from a re-analysis of the deposited data

How the results depend on the processing

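The 3 other scalings (quantile, median, cyclic loess), both changes of the signal filter, averaging of probe sets and an offset of 32 left each 2-fold count as reported. The stricter filter kept only 8 of the 10 genes, as Pdk4 and Angptl4 lay below it. At 1.5-fold the counts were 3 in place of 1 for fatty acid against both controls, 1 in place of 0 for cholesterol, 2 in place of 1 for fatty acid against cholesterol, and 1 in place of 0 for OZ serum against LZ serum. With the low glucose control alone the fatty acid count was 2, as Cpt1a then passed 2-fold. Of the 10 genes 3 spanned 2-fold over the libraries, beside 7.49% of all genes, or 2 after median centring and with the offset, when Cpt1a was below it. Small directions depended on scaling: median centring brought Hadha with fatty acid and Acadvl with cholesterol to no agreed direction, quantile normalization and cyclic loess did so for Cpt2 with the sera, and Acadl and Hadha changed side between the controls after median centring. No paired analysis was possible because each group holds 1 array and no result comes from a test. Precision is limited by the number of arrays.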
